A study of Mus musculus with 11 samples.

Results

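The genes described here are the keratins, the small proline-rich (Sprr) genes and a set of named genes of the epidermal differentiation programme. The named genes were the cornified envelope genes Lor, Ivl, Flg and Tgm1, the desmosome genes Dsp, Dsg2, Dsc2, Pkp1, Jup and Dsg1a, the transcription factor genes Trp63, Klf4, Klf5, Ovol1 and Grhl2, and the adhesion gene Epcam. Members were taken by gene symbol alone, from probe sets annotated with a single symbol. This gave 91 of 22690 probe sets and 64 of 12393 genes, made up of 40 keratins, 9 Sprr genes and 15 of the 16 named genes. Dsg1a had no single-symbol probe set and was not analysed here.

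Messenger RNA was measured with Affymetrix oligonucleotide arrays in JB6 cells, a mouse line of epidermal origin used as a model of the step from attached growth to growth in soft agar. The RT101 groups were colonies (3 arrays) and monolayer cells (2 arrays) of RT101, a tumour variant of JB6 that was left untreated. The bFGF-JB6 groups were colonies (3 arrays) and monolayer cells (3 arrays) of the parental JB6 clone 41-5A. The protocol gives 10 ng/ml of basic fibroblast growth factor for these parental cells in the soft agar assay, and colonies were collected on day 7. The monolayers are labelled as treated with bFGF, without a dose or a time. All groups shared Eagle's minimal essential medium with 4% fetal bovine serum, and each line stands for 1 clone or variant. RT101 and bFGF-JB6 differ in both the line and bFGF. The labels do not say whether the arrays within a group represent independent cultures. The p-values thus reflect only array-to-array spread, possibly of technical origin. In bulk RNA, fewer cells of a type and less RNA per cell cannot be told apart.

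Keratinocytes of the basal layer make the keratin pair of Krt5 and Krt14 under the control of the transcription factor p63, the product of Trp63. On leaving the basal layer they switch to Krt1 and Krt10, and later lay down the cornified envelope from involucrin (Ivl), loricrin (Lor), Sprr proteins and profilaggrin (Flg), cross-linked by transglutaminases such as Tgm1. Desmosomes, built from desmogleins, desmocollins, plakoglobin (Jup), plakophilins and desmoplakin (Dsp), anchor the keratin filaments at cell contacts.

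Promoter windows are shown for 2 members that reached the array median in some or all groups, Krt10 and Jup, and for the basal pair Krt14 and Krt5, which did not. Each window is the 250 bases before the annotated start, taken from RefSeq on build GRCm38.p6 and written 5′ to 3′. Capitals mark a TATA box (TATAAA) or a CACCC box (CCACCC, the core bound by Krüppel-like factors), searched on both strands, so that a match on the other strand reads GGGTGG.
Krt10 (chr11:99389365-99389614, minus strand): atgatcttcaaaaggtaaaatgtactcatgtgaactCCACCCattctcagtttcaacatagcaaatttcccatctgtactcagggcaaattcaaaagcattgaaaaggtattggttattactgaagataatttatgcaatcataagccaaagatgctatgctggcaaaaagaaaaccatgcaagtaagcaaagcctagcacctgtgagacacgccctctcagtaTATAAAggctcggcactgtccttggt
Jup (chr11:100397791-100398040, minus strand): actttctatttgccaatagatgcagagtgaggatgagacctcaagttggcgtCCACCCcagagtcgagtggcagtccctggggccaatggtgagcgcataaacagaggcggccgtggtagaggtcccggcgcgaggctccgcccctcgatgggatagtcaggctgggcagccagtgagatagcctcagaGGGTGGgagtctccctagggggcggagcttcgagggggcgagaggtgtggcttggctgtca
Krt14 (chr11:100206031-100206280, minus strand): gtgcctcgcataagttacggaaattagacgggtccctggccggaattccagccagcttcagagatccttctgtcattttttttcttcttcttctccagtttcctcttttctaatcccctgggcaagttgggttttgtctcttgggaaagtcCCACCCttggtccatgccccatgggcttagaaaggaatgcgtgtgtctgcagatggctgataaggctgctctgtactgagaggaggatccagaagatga
Krt5 (chr15:101712906-101713155, minus strand): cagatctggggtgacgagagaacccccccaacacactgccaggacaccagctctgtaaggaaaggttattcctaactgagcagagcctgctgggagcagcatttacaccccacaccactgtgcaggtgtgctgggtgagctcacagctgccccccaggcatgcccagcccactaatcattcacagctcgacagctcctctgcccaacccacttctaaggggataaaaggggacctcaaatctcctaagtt
The Krt10 window held TATAAA at bases -26 to -21 from the start and CCACCC at -214 to -209. The Jup window held CCACCC at -198 to -193 and, on the other strand, at -61 to -56, and the Krt14 window held CCACCC at -99 to -94. No match to these letters was found in the Krt5 window. Of the 64 genes, 41 had an entry in the promoter table, with 43 windows. TATAAA was present in 53.5% of those windows, against 12.4% of all 32851 promoter windows of the same length. CCACCC was present in 48.8% of member windows and 28.1% of all windows, TGANTCA (AP-1) in 27.9% and 6.75%, and GCCNNNGGC (AP-2) in 9.3% and 13.7%. Matches of different motifs may overlap, and a match is only a match of letters. Members with a window lay close together in the genome, with 13 keratins on chromosome 11, 12 keratins on chromosome 15 and 8 Sprr genes on chromosome 3, so their windows are not independent.

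The signals are log2 values that the authors made by RMA, which gives no detection call. A low signal therefore cannot be told from an absent transcript, and a position relative to the quartiles of an array is a rank among probe sets, not an amount of mRNA. Across the 11 arrays the lower quartile lay between 3.78 and 3.91, the median between 5.82 and 5.95 and the upper quartile between 7.75 and 7.85. The correlation of arrays over probe sets was 0.989 to 0.998 within groups and 0.934 to 0.983 between groups. The log2 signal of the Gapdh control was higher for the 3′ than for the 5′ probe set on bFGF-JB6 colonies replicate 3 (by 0.35) and on bFGF-JB6 monolayer replicate 1 (by 0.19). On the other arrays that difference was -0.08 to -0.01.

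Most of the epidermal programme gave low signals in all groups. Of the 64 member genes, 54 were below the array median on every array, and 23 of these were below the lower quartile on every array. Genes at or above the median on every array of their group numbered 5 in RT101 colonies, 7 in RT101 monolayer, 6 in bFGF-JB6 colonies and 5 in bFGF-JB6 monolayer. That is 7.81%, 10.9%, 9.38% and 7.81% of the members, where the shares of all 12393 genes were 53.1%, 52.9%, 52.6% and 52.9%. The median member stood at percentile 25.9 of the array in RT101 colonies, 26.5 in RT101 monolayer, 26.2 in bFGF-JB6 colonies and 25.4 in bFGF-JB6 monolayer, and the median of all genes between 54.2 and 54.9. On the brightest probe set of each gene, Klf4 and Klf5 alone were at or above the upper quartile on all arrays. The second Klf4 probe set read 7.44 to 7.83, between the median and the upper quartile. The second Klf5 probe set read 4.78 to 6.57, below the median on all colony arrays and above it on all monolayer arrays.

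**Figure D1:**
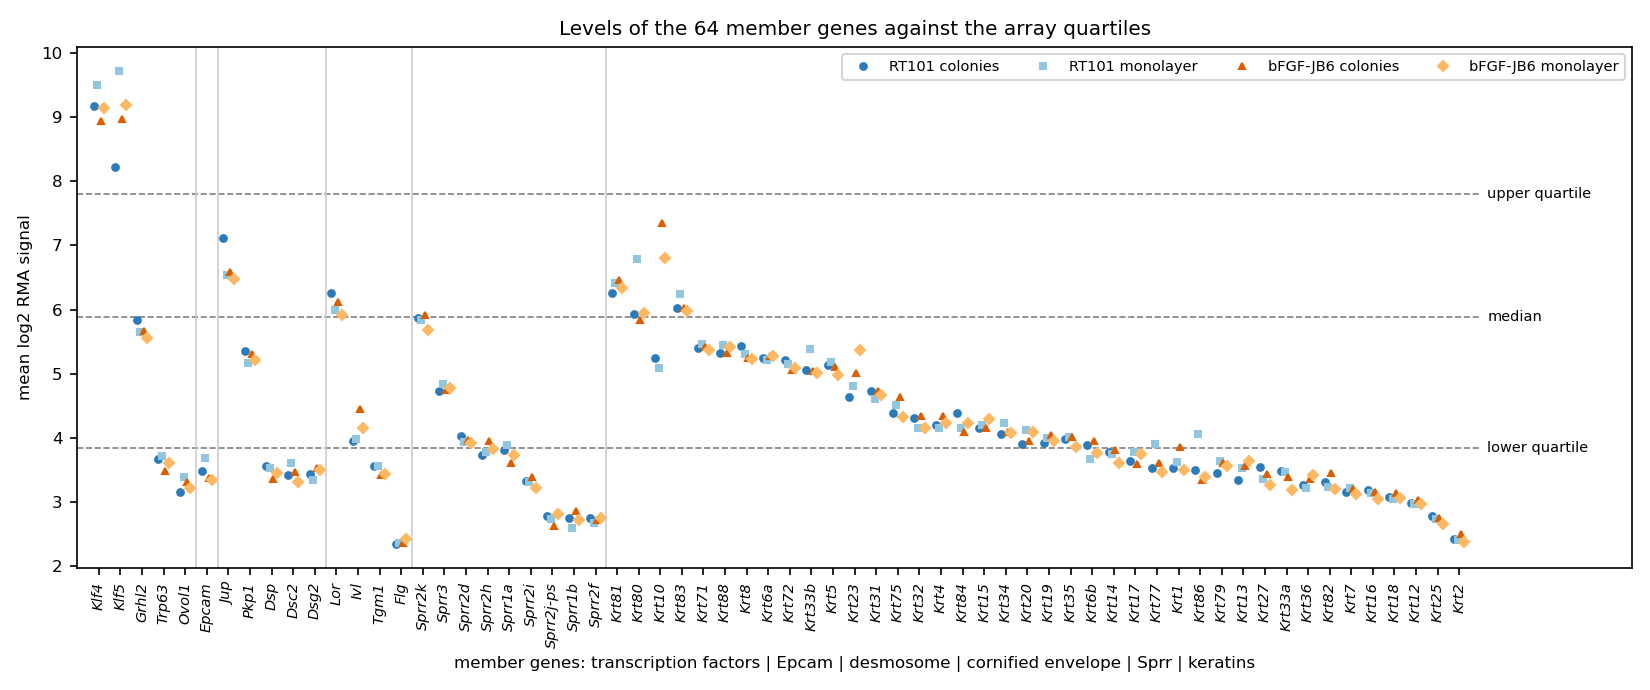
Mean log2 RMA signal of each of the 64 member genes (x axis, grouped by role) in RT101 colonies, RT101 monolayer, bFGF-JB6 colonies and bFGF-JB6 monolayer, with the array quartiles as horizontal lines. On their brightest probe sets Klf4 and Klf5 lie above the upper quartile in all 4 groups, while 54 of the 64 genes were below the array median on every array.

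The keratins were mostly in the low classes, with 36 of 40 below the median on all 11 arrays and 12 of those below the lower quartile on all. The basal keratin gene Krt14 had 3.71, 3.87 and 3.76 in RT101 colonies, 3.66 and 3.82 in RT101 monolayer, 3.76, 3.83 and 3.82 in bFGF-JB6 colonies and 3.57, 3.60 and 3.66 in bFGF-JB6 monolayer. Its partner Krt5 had 5.14, 5.26 and 5.00 in RT101 colonies, 5.29 and 5.07 in RT101 monolayer, 5.19, 5.00 and 5.12 in bFGF-JB6 colonies and 4.86, 5.29 and 4.79 in bFGF-JB6 monolayer. Krt5 lay below the median in every sample, and the arrays of the 4 groups overlapped. For Krt14 all bFGF-JB6 colony arrays lay above all bFGF-JB6 monolayer arrays, without a call (difference 0.19, limma adjusted p = 0.0975). The RT101 minus bFGF-JB6 difference in its colony change was -0.15 (limma adjusted p = 0.433). With each probe set tested separately, another Krt14 probe set gave -0.42 and was called (limma adjusted p = 0.0406). The suprabasal keratin gene Krt2 ranged from 2.29 to 2.55. The simple-epithelial keratin genes were no exception, with Krt8 at 5.15 to 5.52, Krt18 at 2.88 to 3.33, Krt19 at 3.73 to 4.39 and Krt7 at 2.92 to 3.42. Keratin genes known to be induced in wounded epidermis were at 5.01 to 5.48 (Krt6a), 2.92 to 3.35 (Krt16) and 3.39 to 3.90 (Krt17). All of these were below the array median on every array.

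The keratins that reached the median on every array of at least 1 group were Krt10, Krt80, Krt81 and Krt83. Krt81 and Krt83 encode keratins of the hair shaft. Krt81 had 5.95, 6.41 and 6.42 in RT101 colonies, 6.55 and 6.27 in RT101 monolayer, 6.46, 6.39 and 6.55 in bFGF-JB6 colonies and 6.26, 6.52 and 6.21 in bFGF-JB6 monolayer. Krt83 had 5.86, 6.25 and 5.95 in RT101 colonies, 6.27 and 6.21 in RT101 monolayer, 5.92, 6.00 and 6.15 in bFGF-JB6 colonies and 5.84, 6.18 and 5.90 in bFGF-JB6 monolayer. Neither gene was called in any comparison. The groups compared overlapped for both, except that the Krt83 arrays of RT101 monolayer lay above those of bFGF-JB6 monolayer (difference 0.27, limma adjusted p = 0.124). Hair keratin genes are close relatives in sequence, so their values are uncertain where a probe set reads more than 1 of them.

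Cornified envelope and Sprr genes were low with few exceptions. Flg was at 2.26 to 2.63 on the 11 arrays, Tgm1 at 3.19 to 3.86 and Ivl at 3.76 to 4.66. Lor had 6.21, 6.19 and 6.35 in RT101 colonies, 6.11 and 5.87 in RT101 monolayer, 5.96, 6.10 and 6.27 in bFGF-JB6 colonies and 6.00, 5.74 and 6.02 in bFGF-JB6 monolayer on its brightest probe set. The other 2 Lor probe sets read 3.07 to 3.91, so the probe sets disagreed about the side of the median. Of the 9 Sprr genes, 8 were below the median on all arrays, between 2.49 and 5.06. Sprr2k straddled it, with 5.65, 5.97 and 5.99 in RT101 colonies, 5.95 and 5.72 in RT101 monolayer, 5.75, 6.02 and 5.96 in bFGF-JB6 colonies and 5.37, 5.91 and 5.76 in bFGF-JB6 monolayer.

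Among the desmosome genes, Dsp ranged from 3.27 to 3.71, Dsg2 from 3.22 to 3.67, Dsc2 from 3.07 to 3.73 and Pkp1 from 5.10 to 5.46, all below the median. Jup, whose product plakoglobin also sits in adherens junctions, was above the median on all 11 arrays. Its probe set is 1 of 8 among the members' 91 with the suffix s_at, which marks probe sets that can read more than 1 transcript. The master regulator gene Trp63 had 3.63, 3.74 and 3.63 in RT101 colonies, 3.64 and 3.78 in RT101 monolayer, 3.41, 3.47 and 3.57 in bFGF-JB6 colonies and 3.51, 3.71 and 3.62 in bFGF-JB6 monolayer, below the lower quartile on all. Its other probe sets read 2.14 to 3.30. Of the genes that define basal keratinocytes, Krt5, Krt14 and Trp63, none reached the array median in any sample. Ovol1, which encodes a repressor that promotes exit from proliferation in epidermis, was at 2.95 to 3.48, and the epithelial adhesion gene Epcam at 3.13 to 3.71. Grhl2, a regulator of epithelial junction genes, had 5.83, 5.84 and 5.85 in RT101 colonies, 5.64 and 5.66 in RT101 monolayer, 5.12, 5.64 and 6.22 in bFGF-JB6 colonies and 5.52, 5.66 and 5.48 in bFGF-JB6 monolayer. Its highest value was on bFGF-JB6 colonies replicate 3, the array with the raised Gapdh 3′ signal, whose part in this was not tested. The other Grhl2 probe sets read 2.81 to 5.25, below the median on all arrays. With each probe set tested separately, 1 of them was called higher in RT101 monolayer than in bFGF-JB6 monolayer (0.44, limma adjusted p = 0.0212). The rest were not called in that comparison.

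Lists of related genes and of other cell types were described on the same scale. Of 24 measured genes among 34 other cornified envelope and desmosome genes, 2 were at or above the median on every array in RT101 colonies, 3 in RT101 monolayer, 1 in bFGF-JB6 colonies and 1 in bFGF-JB6 monolayer. Of 23 measured epithelial junction and splicing genes the counts were 3, 4, 3 and 3 in the same order, and Cdh1, the gene of E-cadherin, averaged 2.39, 2.44, 2.45 and 2.39. Of 21 other epidermal transcription factor genes the counts were 4, 3, 5 and 5. Of 11 measured hemidesmosome and basement membrane genes, 7 reached the median in each group. The other 4 were below it on every array. Their group means were 4.66 to 5.09 for Itgb4, 2.82 to 3.32 for Col17a1, 3.43 to 3.50 for Lama3 and 3.72 to 4.12 for Lamb3.

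Most mesenchymal and fibroblast markers stood high on the arrays. Of 29 measured, 23 were at or above the median on every array in RT101 colonies, 21 in RT101 monolayer, 24 in bFGF-JB6 colonies and 25 in bFGF-JB6 monolayer, and 17, 17, 19 and 18 were at or above the upper quartile. Vim, which encodes the intermediate filament protein of mesenchymal cells, averaged 13.06 ± 0.02 (SD, n = 3) in RT101 colonies, 12.97 ± 0.01 (n = 2) in RT101 monolayer, 12.87 ± 0.09 (n = 3) in bFGF-JB6 colonies and 13.16 ± 0.06 (n = 3) in bFGF-JB6 monolayer. Many cultured cell lines make vimentin. On the same list Thy1, Fap and Lum were below the lower quartile on every array, and Tagln below the median. Cdh11 averaged 2.70 in RT101 colonies, 2.43 in RT101 monolayer, 9.52 in bFGF-JB6 colonies and 8.88 in bFGF-JB6 monolayer. Dcn averaged 5.84, 4.51, 9.66 and 10.63 in the same order. Of the melanocyte markers 1 of 10 reached the median on every array in each group. That gene was Sox10 in the RT101 groups and Mitf in the bFGF-JB6 groups. Mitf averaged 5.38 in RT101 colonies, 5.88 in RT101 monolayer, 7.29 in bFGF-JB6 colonies and 6.99 in bFGF-JB6 monolayer. Tyr and Dct means lay between 3.22 and 3.65. Endothelial markers reached the median for 0 of 8 in each group. Of 11 macrophage and leukocyte markers, 1 reached it in RT101 colonies, 1 in RT101 monolayer, 2 in bFGF-JB6 colonies and 2 in bFGF-JB6 monolayer. The pan-leukocyte gene Ptprc had group means of 2.34 to 2.53, and Cd68, a lysosomal gene, averaged 3.54, 3.74, 8.31 and 6.45 in that order.

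**Figure D2:**
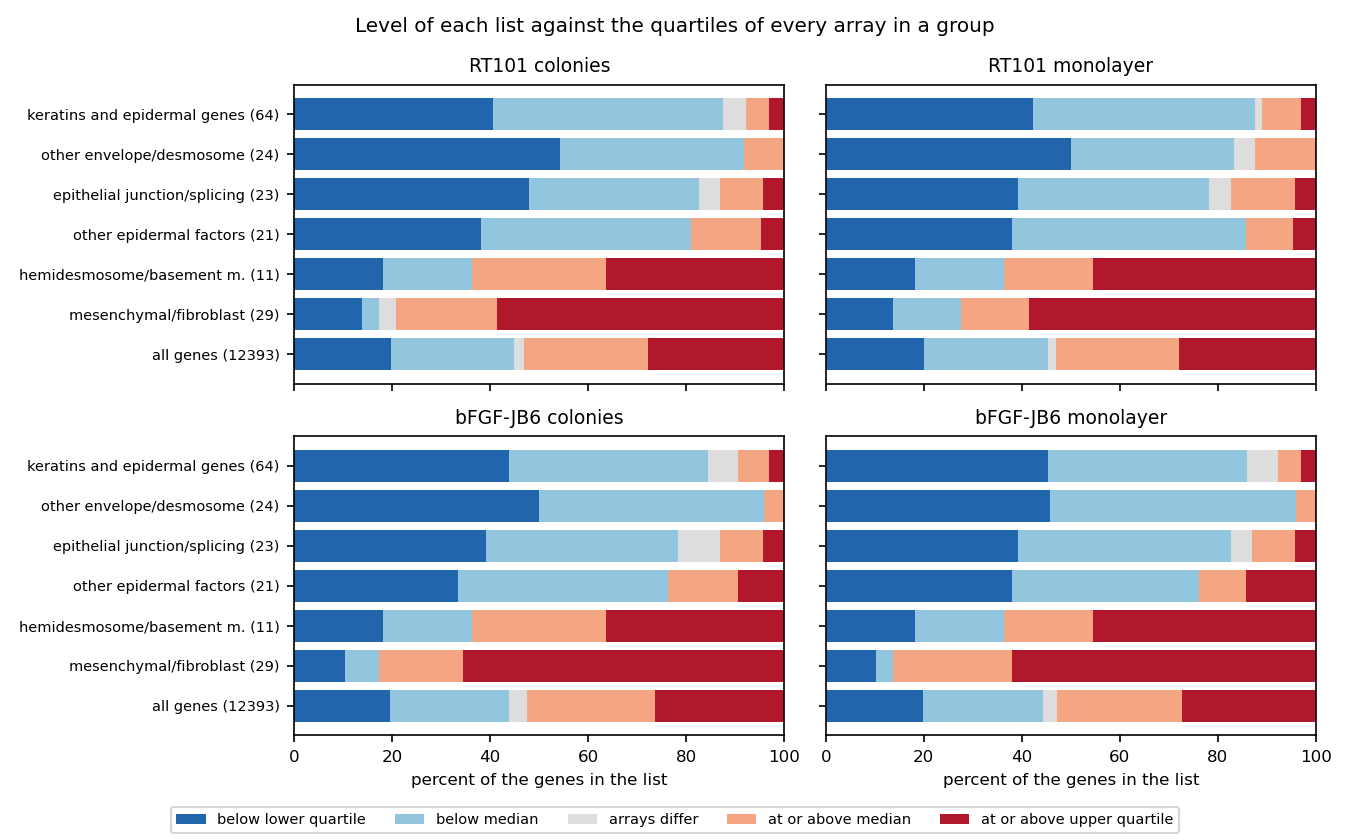
Percent of the genes of each list (x axis) by their position against the quartiles of every array in a group, with 1 panel each for RT101 colonies, RT101 monolayer, bFGF-JB6 colonies and bFGF-JB6 monolayer; the number of genes stands beside each list. The member genes have most of their bar below the median, and 21 to 25 of the 29 mesenchymal and fibroblast markers are at or above it.

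The members also varied little between the groups. The range of the 4 group means had a median of 0.21 log2 over the members and 0.49 over all genes. It was under 0.5 for 57 of 64 members (89.1%), against 50.8% of all genes. Only Krt10 (2.27) and Klf5 (1.50) had a range of at least 1, which 23.1% of all genes had. RMA compresses differences of weak signals, so a small range at a low signal says little about the transcript.

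Soft agar growth of RT101 was compared with its monolayer to find members that differ with colony formation in the untreated tumour variant. With limma across all 12393 genes, 6 of 64 members (9.38%) passed a threshold of 0.05 on the p adjusted by Benjamini-Hochberg, 1 higher and 5 lower in colonies, against 32.4% of all genes. The share of genes called depends on the signal: 4 of the 8 members whose mean was at or above the median were called, as were 47.2% of all genes between the median and the upper quartile and 54.0% of those above it. Among genes below the lower quartile 1 of 32 members and 3.34% of all genes were called, and between the lower quartile and the median 1 of 24 members and 16.5% of all genes.

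Klf5, which encodes a Krüppel-like factor of proliferating epithelial cells, was lower in colonies. It had 8.32, 8.15 and 8.20 in RT101 colonies and 9.80 and 9.66 in RT101 monolayer, with no overlap. The log2 difference was -1.50 (SE 0.14, 2.84-fold lower, 95% interval -1.81 to -1.19, limma adjusted p = 2.39e-06). The second Klf5 probe set had 5.04, 5.36 and 4.78 in RT101 colonies and 6.57 and 6.27 in RT101 monolayer, a difference of -1.36 (SE 0.17, limma adjusted p = 5.53e-05). Both probe sets thus gave a fall of similar size.

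Krt80, an epithelial type II keratin gene, had 6.05, 5.99 and 5.76 in RT101 colonies and 6.91 and 6.67 in RT101 monolayer. It was 1.81-fold lower in colonies (log2 difference -0.86, SE 0.15, limma adjusted p = 0.000493), with no overlap. Klf4, which encodes a Krüppel-like factor needed for the epidermal barrier in mice, had 9.09, 9.26 and 9.17 in RT101 colonies and 9.53 and 9.47 in RT101 monolayer. It differed by -0.32 (SE 0.09, limma adjusted p = 0.0103), a call that was lost without RT101 monolayer replicate 1 (adjusted p = 0.0811) and on its second probe set (-0.08, adjusted p = 0.662).

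Jup was the only member called higher in RT101 colonies. It had 7.14, 7.18 and 7.02 in RT101 colonies and 6.70 and 6.39 in RT101 monolayer, without overlap. The difference was 0.57 (SE 0.12, 1.49-fold, limma adjusted p = 0.00233), and 0.42 (adjusted p = 0.0509) without RT101 monolayer replicate 2. The other calls were on hair keratin genes with low signals: Krt86 had 3.61, 3.41 and 3.48 in RT101 colonies and 4.06 and 4.03 in RT101 monolayer (difference -0.55, SE 0.14, limma adjusted p = 0.00688). Krt33b differed by -0.34 (limma adjusted p = 0.0425), and lost its call in 8 of 19 alternatives, at most to an adjusted p of 0.305 without RT101 monolayer replicate 1.

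**Figure D3:**
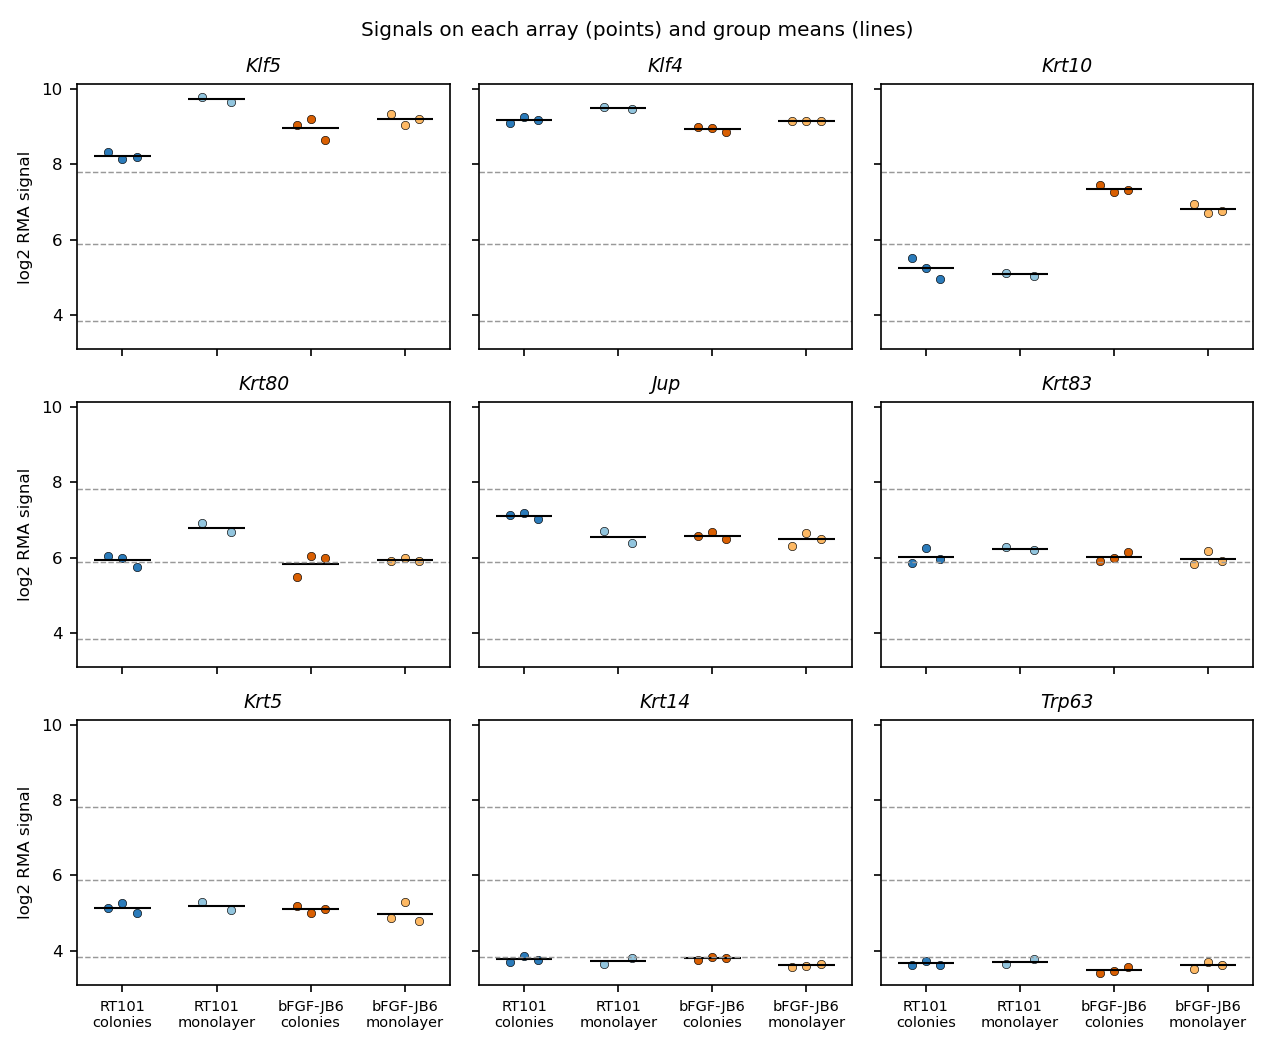
Log2 RMA signal on each array (points) and group means (lines) for single members, with RT101 colonies, RT101 monolayer, bFGF-JB6 colonies and bFGF-JB6 monolayer from left to right and dashed lines at the array quartiles. Krt10 is at 4.95 to 5.53 on the 5 RT101 arrays and at 6.71 to 7.46 on the 6 bFGF-JB6 arrays, and Klf5 is lowest in RT101 colonies.

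The same comparison in bFGF-JB6 cells called 2 of 64 members (3.12%), both higher in colonies, against 29.4% of all genes in either direction and 14.1% of all genes higher in colonies. Krt10, the type I keratin gene of suprabasal epidermis, had 7.46, 7.28 and 7.32 in bFGF-JB6 colonies and 6.95, 6.71 and 6.77 in bFGF-JB6 monolayer. All colony arrays were above all monolayer arrays, and the difference was 0.54 (SE 0.13, 1.46-fold, limma adjusted p = 0.00528). Its type II partner Krt1 had 3.92, 3.78 and 3.84 in bFGF-JB6 colonies and 3.39, 3.60 and 3.48 in bFGF-JB6 monolayer, also without overlap. The difference was 0.36 (SE 0.09, 1.28-fold, limma adjusted p = 0.00951), at a signal below the array median throughout. Krt1 stood near or below the lower quartile, at a mean percentile of 24.7 in bFGF-JB6 colonies and 20.0 in bFGF-JB6 monolayer. Both calls held in all 19 alternatives that tested these genes.

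The genes that moved in RT101 did not pass in bFGF-JB6 on their brightest probe sets. Klf5 had 9.05, 9.20 and 8.66 in bFGF-JB6 colonies and 9.35, 9.04 and 9.21 in bFGF-JB6 monolayer, overlapping (difference -0.23, 95% interval -0.51 to 0.04, limma adjusted p = 0.209). On its second probe set, however, Klf5 had 5.07, 5.37 and 5.04 in bFGF-JB6 colonies and 6.32, 6.23 and 6.05 in bFGF-JB6 monolayer, and was called lower (-1.04, SE 0.15, limma adjusted p = 0.000241). The probe sets therefore disagree about Klf5 in these cells. Klf4 had 8.98, 8.96 and 8.87 in bFGF-JB6 colonies and 9.15, 9.14 and 9.14 in bFGF-JB6 monolayer, without overlap (difference -0.20, 95% interval -0.37 to -0.04, limma adjusted p = 0.0646). Its colony change was not shown to differ between the lines (-0.12, limma adjusted p = 0.517). Jup had 6.56, 6.69 and 6.49 in bFGF-JB6 colonies and 6.30, 6.64 and 6.50 in bFGF-JB6 monolayer (0.10, 95% interval -0.14 to 0.34, limma adjusted p = 0.561). Krt80 had 5.49, 6.03 and 5.99 in bFGF-JB6 colonies and 5.92, 5.98 and 5.91 in bFGF-JB6 monolayer (-0.10, 95% interval -0.39 to 0.19, limma adjusted p = 0.644).

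Whether the colony changes differed between the lines was tested as the RT101 change minus the bFGF-JB6 change. This called 4 of 64 members (6.25%), against 27.7% of all genes. The differences were -1.27 for Klf5 (SE 0.19, limma adjusted p = 0.000217), -0.76 for Krt80 (SE 0.20, adjusted p = 0.0116), -0.45 for Krt1 (SE 0.14, adjusted p = 0.0264) and 0.47 for Jup (SE 0.16, adjusted p = 0.0471). For Klf5 the second probe set gave -0.31 (limma adjusted p = 0.369), so the difference rests on the brightest probe set. For Krt80 the value was -0.64 (adjusted p = 0.0713) without RT101 monolayer replicate 1. The Jup call was lost in 10 of 19 alternatives and the Krt1 call in 8 of 18, with values of 0.32 to 0.63 for Jup and -0.57 to -0.33 for Krt1. Krt10 was not called (-0.38, 95% interval -0.79 to 0.03, limma adjusted p = 0.174), so its colony change was not shown to differ between lines.

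RT101 was then set against bFGF-JB6, first in monolayer, where line and treatment cannot be told apart. Of 64 members 8 were called (12.5%), 6 higher and 2 lower in RT101, against 44.4% of all genes. Krt10 gave the largest difference among members. It had 5.13 and 5.03 in RT101 monolayer and 6.95, 6.71 and 6.77 in bFGF-JB6 monolayer, 3.32-fold lower in RT101 (log2 difference -1.73, SE 0.14, limma adjusted p = 2.64e-07). All RT101 arrays were below the array median for Krt10 and all bFGF-JB6 arrays above it.

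Krt80 had 6.91 and 6.67 in RT101 monolayer, above the 5.92, 5.98 and 5.91 of bFGF-JB6 monolayer (difference 0.86, SE 0.15, limma adjusted p = 0.000304). Klf5 was higher in RT101 monolayer by 0.53 (SE 0.14, adjusted p = 0.00773), and by 0.46 (adjusted p = 0.0763) without RT101 monolayer replicate 1. Its second probe set gave 0.22 (limma adjusted p = 0.346). Klf4 was higher by 0.36 (SE 0.09, limma adjusted p = 0.00377), while its second probe set differed by -0.02 (adjusted p = 0.898). Low-signal calls were Krt86 (0.67), Krt33b (0.37), Krt33a (0.28) and Krt23 (-0.57), with limma adjusted p-values of 0.00119, 0.0193, 0.022 and 0.0196. Krt23 had 4.99 and 4.61 in RT101 monolayer and 5.53, 5.66 and 4.91 in bFGF-JB6 monolayer, so its arrays overlapped. The Krt33b call was lost without RT101 monolayer replicate 1 (adjusted p = 0.187), and those of Krt33a (0.109) and Krt23 (0.209) without RT101 monolayer replicate 2.

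In colonies 7 of 64 members were called (10.9%), 3 higher and 4 lower in RT101, against 43.3% of all genes. Krt10 had 5.53, 5.25 and 4.95 in RT101 colonies and 7.46, 7.28 and 7.32 in bFGF-JB6 colonies. It was 4.32-fold lower in RT101 (log2 difference -2.11, SE 0.13, limma adjusted p = 1.3e-08), and this comparison and that of the monolayers kept direction and call in all 19 alternatives. Klf5 had 8.32, 8.15 and 8.20 in RT101 colonies and 9.05, 9.20 and 8.66 in bFGF-JB6 colonies, and differed by -0.74 (SE 0.13, limma adjusted p = 0.000281). Its second probe set gave -0.10 (adjusted p = 0.665). Jup was higher in RT101 colonies, at 7.14, 7.18 and 7.02, than in bFGF-JB6 colonies, at 6.56, 6.69 and 6.49 (0.53, SE 0.11, limma adjusted p = 0.00113).

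The remaining colony calls were small. Klf4 was higher in RT101 by 0.24 (SE 0.08, limma adjusted p = 0.0228), a call lost in 8 of 21 alternatives, among them the second probe set (0.05, adjusted p = 0.745). Ivl had 3.92, 3.98 and 3.94 in RT101 colonies and 4.55, 4.66 and 4.10 in bFGF-JB6 colonies (difference -0.50, SE 0.14, limma adjusted p = 0.00963), and -0.38 (adjusted p = 0.0526) without bFGF-JB6 colonies replicate 2. Krt1 differed by -0.32 (adjusted p = 0.0116) and Krt84 by 0.29 (adjusted p = 0.0457, lost in 11 of 19 alternatives). Krt80, which separated the monolayers, had 6.05, 5.99 and 5.76 in RT101 colonies and 5.49, 6.03 and 5.99 in bFGF-JB6 colonies, overlapping (0.10, 95% interval -0.19 to 0.39, adjusted p = 0.626).

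**Figure D4:**
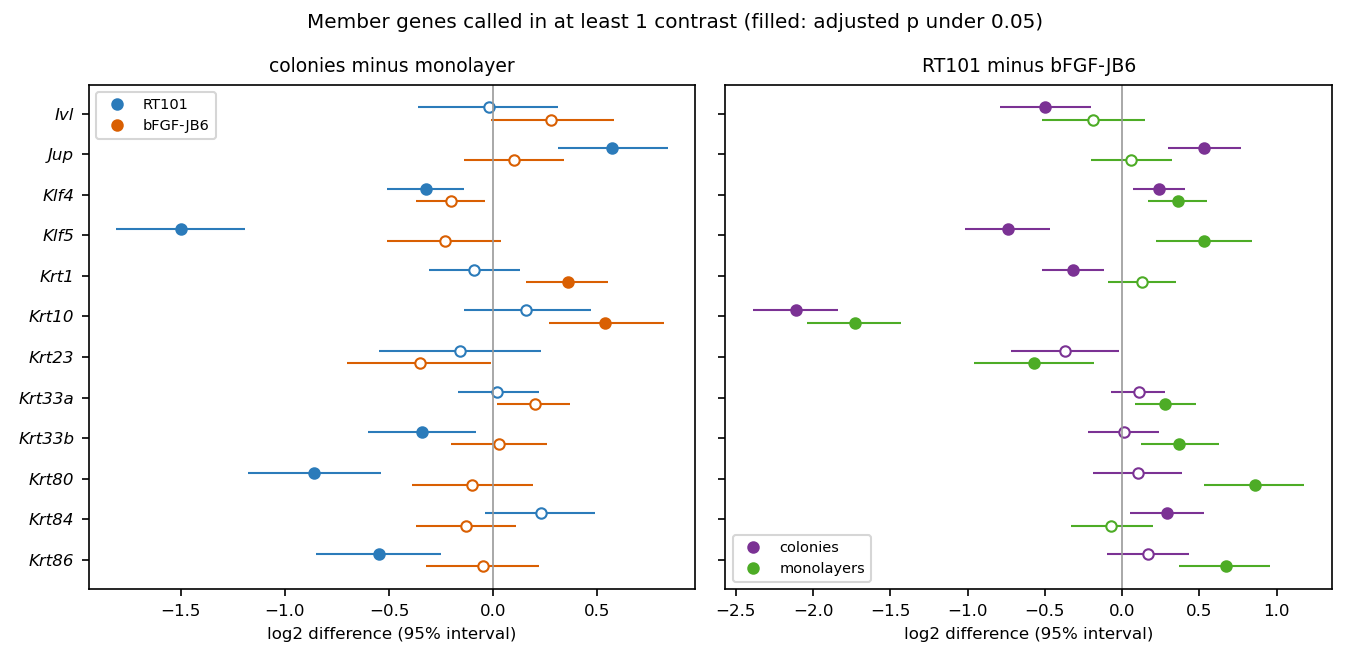
Log2 differences with 95% intervals for the 12 members called in at least 1 comparison, with filled points for an adjusted p under 0.05; a positive value is higher in colonies, or higher in RT101. Krt10 is far below 0 in RT101 against bFGF-JB6 (-1.73 in monolayer, -2.11 in colonies), and Klf5 is at -1.50 in RT101 colonies against monolayer.

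Across the comparisons 12 members were called at least once. Of these, 5 reached the array median in some group, namely Klf4, Klf5, Jup, Krt10 and Krt80. The comparisons share arrays, so their calls are not independent of each other. Each of the 4 groups enters 3 comparisons, and RT101 monolayer has only 2 arrays.

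Some epidermal genes outside the rule were also called. Cdsn, which encodes corneodesmosin of the cornified layer, averaged 4.81 ± 0.28 in RT101 colonies (SD, n = 3), 7.07 ± 0.11 in RT101 monolayer (n = 2), 4.80 ± 0.15 in bFGF-JB6 colonies (n = 3) and 4.79 ± 0.05 in bFGF-JB6 monolayer (n = 3). Its log2 difference was -2.26 for RT101 colonies minus RT101 monolayer (limma adjusted p = 5.42e-08) and 2.27 for RT101 monolayer minus bFGF-JB6 monolayer (adjusted p = 1.94e-08). It was the single called gene of 24 on its list in the RT101 colony comparison, and Pkp3 (-0.35, limma adjusted p = 0.00819) the single one in bFGF-JB6. Of 23 epithelial junction and splicing genes, 1 was called in each line, F11r in RT101 (-0.51, adjusted p = 0.0077) and Tjp1 in bFGF-JB6 (-0.55, adjusted p = 7.6e-05), both lower in colonies. Over all genes, 15.4% were called lower in RT101 colonies and 15.3% in bFGF-JB6 colonies.

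Of 21 other epidermal transcription factor genes, 6 (28.6%) were called between the monolayers, 2 higher and 4 lower in RT101, against 44.4% of all genes. Between the colonies 5 (23.8%) were called, 1 higher and 4 lower in RT101, against 43.3% of all genes. Tfap2a and Sox9, which act in skin development, were among the lower genes in both comparisons. Tfap2a averaged 5.18 ± 0.11 in RT101 colonies, 5.39 ± 0.13 in RT101 monolayer, 7.98 ± 0.30 in bFGF-JB6 colonies and 8.37 ± 0.14 in bFGF-JB6 monolayer. Sox9 averaged 6.27 ± 0.14, 5.62 ± 0.21, 8.57 ± 0.09 and 8.81 ± 0.11 in the same order. The RT101 minus bFGF-JB6 differences were -2.80 in colonies and -2.98 in monolayer for Tfap2a, and -2.29 and -3.19 for Sox9 (limma adjusted p-values of 1.49e-09, 2.41e-09, 9.14e-10 and 1e-10). Of the 21 factors on that list, 2 were called higher and 1 lower in RT101 colonies than in RT101 monolayer, and 2 higher and 2 lower in bFGF-JB6 colonies than in bFGF-JB6 monolayer. Cebpb, a factor of suprabasal differentiation, was called higher in colonies in both lines. Its differences were 0.53 in RT101 (limma adjusted p = 0.000778) and 0.51 in bFGF-JB6 (adjusted p = 0.000607). Over the 21 factors the colony differences ran from -0.58 to 0.65 in RT101 and from -0.53 to 0.8 in bFGF-JB6. Grhl1 averaged 3.52 in RT101 colonies and 4.10 in RT101 monolayer. Gata3 averaged 5.27 in bFGF-JB6 colonies and 4.46 in bFGF-JB6 monolayer, and Ehf 4.05 and 4.57. Hemidesmosome and basement membrane genes were called lower in colonies for 3 of 11 in RT101 and 6 of 11 in bFGF-JB6, with none higher. Over all genes 15.4% and 15.3% were called lower. In each group 7 of these 11 genes were at or above the median, and the share called depends on the signal. Of all genes between the median and the upper quartile, 47.2% in RT101 and 41.3% in bFGF-JB6 were called in either direction. Itga6, the gene of the basal integrin subunit alpha-6, differed by -0.61 in RT101 and -1.78 in bFGF-JB6. Of the 29 mesenchymal and fibroblast markers, 13 were higher and 6 lower in RT101 colonies, and 12 higher and 7 lower in bFGF-JB6 colonies. The shares of all genes were 17.0% higher and 15.4% lower in RT101 colonies, and 14.1% and 15.3% in bFGF-JB6 colonies. Most of these markers had high signals, where more genes are called. In either direction 65.5% of the markers were called in each line. Among all genes at or above the upper quartile the shares were 54.0% in RT101 and 46.3% in bFGF-JB6.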

How the data were processed

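Labelled RNA from 11 samples was hybridised 1 sample per array, in 4 groups set by the submitters' titles. The deposited values are log2 signals per probe set made by the authors with RMA (version unstated), per the submitters' processing notes; other steps are not given in the sources used here. No scaling or filter was added. The number of arrays limits the precision. Genes were named from the platform annotation by probe sets with a single symbol (20380 of 22626 that are not controls), and all 91 member symbols were found in the RefSeq gene table. Each gene was represented by its brightest probe set over all arrays.

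Limma 3.58.1 (R 4.3.3) was fitted to all 12393 genes and 11 arrays with group as the term and eBayes variances (7 residual and 6.12 prior degrees of freedom). The threshold for a call was 0.05 after Benjamini-Hochberg adjustment over all genes. SE is the moderated standard error. The procedure was tested on simulated data with 200 of 12393 genes changed in RT101 colonies. Against RT101 monolayer it recovered 55% of changes of 0.5 log2 and 93% of changes of 1, with 8 false among 156 calls. Differences near 0.5 can thus be missed. In the data 4013 genes were called in this comparison, so the rates need not hold there. Alternatives were a replicate block, other summaries of probe sets, scalings, variance models and thresholds, a level filter, the groups compared alone, and leaving out arrays, including the pair with raised Gapdh 3′ signal.

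Members named with values on each array were those at or above the median on every array of a group, those called with a group mean above it, and epidermal landmarks. Further genes were added as examples of their families. The members, lists and tests were chosen with earlier results of these data known. Replicate numbers were checked for pairing: deviations from group means correlated at -0.34 to 0.32 over 15 pairs with the same title number, and 5 were over 0.1. By the letters in the descriptions they correlated at -0.28 to 0.32, with 8 of 15 over 0.1. Arrays with different numbers or letters were not compared in this way, so the check cannot exclude pairing. The main fit did not treat arrays as paired. Python 3.11.15 with matplotlib 3.10.9 made the plots.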

Additional observations from a re-analysis of the deposited data

Results flagged for a closer look

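For 4 genes the colony change differed between RT101 and bFGF-JB6 by limma's test of that difference. The values, RT101 change minus bFGF-JB6 change on the log2 scale, were -1.27 for Klf5, -0.76 for Krt80, -0.45 for Krt1 and 0.47 for Jup (limma adjusted p-values of 0.000217, 0.0116, 0.0264 and 0.0471). The Klf5 difference was not called on its second probe set (-0.31, adjusted p = 0.369), and leaving out RT101 monolayer replicate 1 ended the calls of Krt80 (-0.64, adjusted p = 0.0713) and Krt1 (-0.33, adjusted p = 0.161). Leaving out RT101 monolayer replicate 2 gave 0.32 for Jup (adjusted p = 0.229). Groups of 2 or 3 arrays were too small for a check of single outlying samples.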

How the results depend on the processing

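Of 27 called differences of single members, 11 kept direction and call in every alternative that tested them. They include Krt10 in bFGF-JB6 colonies and in both comparisons of the lines, Klf5 and Krt80 in RT101 colonies, and Jup between the colonies. The single reversal was Klf4 between the monolayers on its second probe set (-0.02, limma adjusted p = 0.898).

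With the fit limited to genes whose mean was at or above that of the median gene, the members called were 3 in RT101 colonies, 1 in bFGF-JB6 colonies, 2 for the difference between the lines, 2 between the monolayers and 3 between the colonies. Without that filter, but with a change of at least 2-fold required, they were 1, 0, 1, 1 and 1 of 64 members. Of all 12393 genes, 717, 432, 968, 1518 and 1247 passed that requirement, in the same order. By limma 8 of 64 members had an unadjusted p under 0.05 in bFGF-JB6 colonies, as had 4726 of all 12393 genes. A higher bar lowers these counts by construction. The level filter changes which members are tested, and Krt10 and Krt1 were not tested under it. The 1 call in bFGF-JB6 colonies under the filter was therefore on another member than the 2 called without it. Leaving out 1 array at a time gave 4 to 6 in RT101 colonies, 2 to 3 in bFGF-JB6 colonies, 2 to 5 for the difference, 5 to 10 between monolayers and 5 to 8 between colonies. The difference had 2 calls without RT101 monolayer replicate 1 or without RT101 colonies replicate 3, and the monolayers 5 without RT101 monolayer replicate 1; the cause was not tested.

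Against quartiles over genes with a single symbol, 3 members reached the median in RT101 colonies and 3 in bFGF-JB6 monolayer, in place of 5 each. Leaving out an array gave 5 to 7 in RT101 colonies, 7 to 8 in RT101 monolayer, 6 to 9 in bFGF-JB6 colonies and 5 to 6 in bFGF-JB6 monolayer.

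A replicate block by title number called 5 members in RT101 colonies, 3 in bFGF-JB6 colonies, 3 for the difference, 9 between monolayers and 7 between colonies. A replicate block by description letter called 6, 3, 5, 9 and 7. Whether the numbers or letters pair the samples was not settled. RMA signals carry no detection call, so most members are limited by signal over background, and RT101 monolayer rests on 2 arrays.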
